A study of Mus musculus with 90 samples.

Results

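Tac1, Tac2, Tacr1 and Tacr3 are the genes of the tachykinin system that this account follows through the mouse brain after a social challenge. They were taken as the rows of the deposited count table whose Ensembl gene identifiers map to these symbols (ENSMUSG00000061762, ENSMUSG00000025400, ENSMUSG00000030043 and ENSMUSG00000028172), which makes 4 of 37991 genes in the table. All 4 passed the filter on low counts in each of the 3 brain regions.

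Tachykinins are short neuropeptides that are cut from larger precursors and end in a shared C-terminal motif. Tac1 encodes the precursor of substance P and neurokinin A, and Tac2 encodes that of neurokinin B. Tacr1 encodes NK1, the receptor that prefers substance P, and Tacr3 encodes NK3, the receptor that prefers neurokinin B; both are receptors that couple to Gq proteins and phospholipase C. In the forebrain Tac1 is known from medium spiny neurons of the striatum that carry the D1 dopamine receptor, and Tac2 from arcuate hypothalamic neurons that also make kisspeptin and dynorphin and from neurons of the central amygdala.

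The residents were C57BL/6J males, each kept with 1 C57BL/6J female for 1 week to establish a territory, and the female was taken away 3 h before the test. Intruder-exposed animals met an unfamiliar BALB/cJ male held in a wire mesh cage for 5 min, and control animals met the same cage with a paper cup in it. Amygdala, hypothalamus and frontal cortex were dissected 30, 60 or 120 min later, which gives 18 groups of region, time and condition and 90 libraries. A group holds 5 libraries, except for the hypothalamus of controls at 30 min (3 libraries) and the frontal cortex at 120 min (6 libraries in each condition). No genotype, transgene or drug distinguishes the groups, and the labels give no age. Library labels carry an animal number, which gives 32 animals of which 28 have all 3 regions, although the design text speaks of pooled RNA samples. Because the mice of each condition and time are different animals, only the regions can be compared within an animal.

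Depth was even, at 38.6 to 58.9 megareads assigned to genes per library with a median of 49.0. The region labels were checked against marker genes. The summed CPM (counts per megaread of the scaled library size) of 8 hypothalamic markers, among them Hcrt, Pmch and Agrp, lay between 730 and 1980 in the hypothalamus, between 9.11 and 86.3 in the amygdala and between 1.21 and 27.4 in the frontal cortex. Cortical excitatory markers summed to 1450 to 2090 CPM in the frontal cortex and to 77.8 to 254 CPM in the hypothalamus. Basolateral amygdala markers summed to 481 to 751 CPM in the amygdala against 185 to 291 CPM in the hypothalamus. The central and medial amygdala markers had a higher sum in the hypothalamus (353 to 535 CPM) than in the amygdala (262 to 387 CPM). In hypothalamus and amygdala in turn, the median of Dlk1 was 304 and 50 CPM, whereas Cyp26b1 (2.6 and 38.7 CPM) and Sst (115 and 199 CPM) went the other way. The mean log2(CPM + 1) of that list was 4.71 to 5.05 over the amygdala groups and 4.53 to 4.62 over the hypothalamic groups. Libraries differed in markers of neighbouring tissue. Markers of striatal medium spiny neurons summed to between 306 and 2840 CPM in the amygdala and between 211 and 1500 CPM in the frontal cortex, but only to between 196 and 368 CPM in the hypothalamus, and none of the 8 was at 0 in any library. In these bulk samples fewer cells of a type and less RNA per cell cannot be told apart.

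The parts of the precursors that become peptides are shown because they define the family. The 3 stretches below were found by translating the longest reading frames of the Gencode M21 transcripts (130 codons for Tac1 and 116 for Tac2). Each is 42 bases of messenger sequence, written 5′ to 3′, that ends with the glycine codon and the pair of basic codons at which the precursor is amidated and cut. The stretches have equal length, and in the neurokinin A and neurokinin B stretches the first codon, for arginine, lies before the peptide. Capitals mark the 15 bases that encode the motif of phenylalanine, a variable residue, glycine, leucine and methionine.
Tac1, substance P, codons 58 to 71: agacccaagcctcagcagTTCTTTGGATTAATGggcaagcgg
Tac1, neurokinin A, codons 97 to 110: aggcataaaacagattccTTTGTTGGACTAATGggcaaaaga
Tac2, neurokinin B, codons 81 to 94: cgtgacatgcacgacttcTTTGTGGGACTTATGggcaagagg
Within the motif the neurokinin A and neurokinin B codons share 13 of 15 bases, the substance P and neurokinin A codons share 12, and the substance P and neurokinin B codons share 10. Both Tac1 peptides come from 1 row of the count table, so their transcripts cannot be separated here.

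All 4 genes were lowest in the frontal cortex. Tac1 averaged 77.8 ± 48.3 CPM (SD, n = 30 libraries) in the amygdala, 70.7 ± 13.7 CPM (n = 28) in the hypothalamus and 32.1 ± 21.6 CPM (n = 32) in the frontal cortex. Tac2 was highest in the hypothalamus, at 25.3 ± 6.99 CPM against 11.1 ± 4.01 CPM in the amygdala and 5.16 ± 0.931 CPM in the frontal cortex. Relative to the frontal cortex the receptors had steeper profiles than the ligands: Tacr1 had 24.9 ± 4.18, 22.2 ± 3.07 and 3.81 ± 2.22 CPM in amygdala, hypothalamus and frontal cortex, and Tacr3 had 13.5 ± 4.52, 21.0 ± 2.93 and 1.55 ± 0.870 CPM. The lowest library of all still held a Tacr3 level of 0.603 CPM. Per kilobase of exon in Gencode M21, which allows levels of different genes to be set side by side, the order in the hypothalamus was Tac1 at 20.8 CPM per kb, Tac2 at 18.4, Tacr3 at 5.58 and Tacr1 at 3.42. On the same scale the amygdala had Tac1 at 22.9, Tac2 at 8.06, Tacr1 at 3.84 and Tacr3 at 3.59, and the frontal cortex had 9.44, 3.74, 0.587 and 0.412 in that order of genes.

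**Figure D1:**
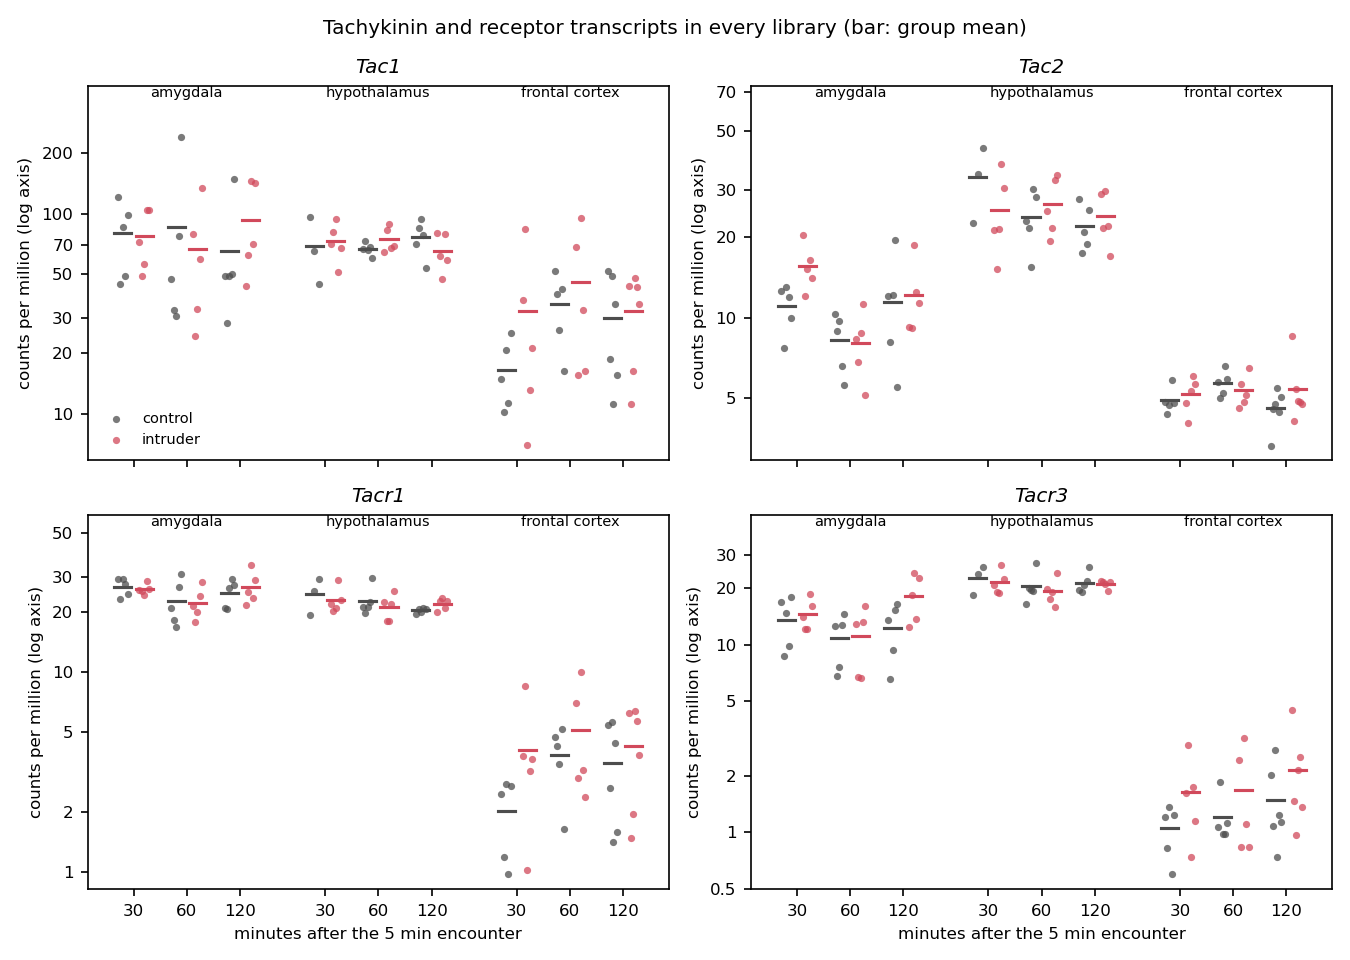
Level of each gene in every library, in CPM on a log axis, by region and minutes after the encounter; grey points are controls, red points intruder-exposed animals, and the bar is the group mean. The frontal cortex groups sit lowest for all 4 genes, and Tac2 is highest in the hypothalamus.

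Levels above were scaled within each region. To order the 18 groups, all 90 libraries were scaled together, which puts the values of this paragraph slightly off those given elsewhere. For each of the 4 genes the 6 frontal cortex groups took places 13 to 18. For Tac2 the 6 hypothalamic groups took places 1 to 6, from 31.1 ± 9.54 CPM in controls at 30 min (SD, n = 3) to 20.4 ± 3.97 CPM in controls at 120 min (n = 5), and the amygdala groups followed, from 15.7 ± 3.13 CPM in intruder-exposed animals at 30 min to 8.08 ± 2.28 CPM in intruder-exposed animals at 60 min. Within the amygdala block of Tac2, the step from controls at 30 min (11.1 ± 2.22 CPM) to controls at 60 min (8.25 ± 2.05 CPM) exceeded both SDs, and the other neighbours inside a region's block did not differ by more than the larger SD. For Tacr3 the hypothalamic groups lay between 17.9 ± 2.97 and 21.1 ± 3.55 CPM, and the amygdala of intruder-exposed animals at 120 min fell among them with 18.4 ± 5.26 CPM. The amygdala and hypothalamus groups of Tac1 and Tacr1 were interleaved. Group means of Tac1 in those regions ran from 60.4 ± 12.9 to 93.2 ± 47.8 CPM and those of Tacr1 from 18.9 ± 0.564 to 26.9 ± 5.01 CPM, and no step between neighbours in that order exceeded the larger SD.

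Regions were compared within animals with edgeR's quasi-likelihood test on all 90 libraries, with the animal as a block and Benjamini-Hochberg adjustment over 18337 genes. These are large contrasts for the whole transcriptome: in controls 68.3% of all genes tested were called at an adjusted p under 0.05 between amygdala and frontal cortex, 81.8% between hypothalamus and frontal cortex and 72.7% between amygdala and hypothalamus, and in intruder-exposed animals 67.7%, 82.9% and 73.9%. A call by itself therefore sets no gene apart here, and the sizes carry the description. The median absolute log2 difference over all genes was 0.42 between hypothalamus and frontal cortex and 0.22 between amygdala and frontal cortex in both conditions.

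Among the ligands, Tac1 was higher in the hypothalamus than in the frontal cortex by 1.31 ± 0.33 (log2, SE) in controls and 0.99 ± 0.31 in intruder-exposed animals (edgeR adjusted p = 0.000319 and 0.00319). Its amygdala excess over the frontal cortex was 1.37 ± 0.32 and 1.20 ± 0.32 (edgeR adjusted p = 0.000156 and 0.000806). Animal by animal the Tac1 excess was uneven: the amygdala exceeded the frontal cortex in 11 of 15 control animals, with ratios from 0.775 to 13.9 and a median of 3.7. Over the same pair of regions Tac2 was higher in the amygdala in 13 of 15 control animals, with ratios from 0.89 to 3.45. Intruder-exposed animals had the higher Tac1 level in the amygdala in 12 of 15 cases, with ratios from 0.333 to 8.44 and a median of 1.84. In the hypothalamus Tac1 exceeded the frontal cortex in 13 of 13 control animals (ratios of 1.1 to 8.25) and in 12 of 15 intruder-exposed animals (0.818 to 11.7). Tac2 had a hypothalamic level 2.62 to 7.99 times that of the frontal cortex in 13 of 13 control animals and 2.93 to 5.48 times in 15 of 15 intruder-exposed animals. The corresponding log2 differences of Tac2 were 2.19 ± 0.14 and 2.02 ± 0.13 (edgeR adjusted p = 1.55e-20 and 2.37e-20). Between amygdala and hypothalamus, Tac2 was lower in the amygdala by a log2 difference of -1.29 ± 0.13 in controls and -0.997 ± 0.122 in intruder-exposed animals (edgeR adjusted p = 2.11e-12 and 3.69e-10), whereas Tac1 was not called (0.06 ± 0.33 and 0.21 ± 0.30).

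Against the frontal cortex the receptors showed larger differences than the ligands, while between amygdala and hypothalamus the difference of Tac2 was the largest of the 4 genes. Tacr3, the neurokinin B receptor, was higher in the hypothalamus than in the frontal cortex by 3.91 ± 0.20 (log2, SE) in controls and 3.36 ± 0.18 in intruder-exposed animals (edgeR adjusted p = 5.32e-24 and 7.42e-23), with within-animal ratios of 6.56 to 25.7 and 4.28 to 25.2. Its amygdala level lay below the hypothalamic level by a log2 difference of -0.72 ± 0.17 in controls, where 13 of 13 animals had the lower value in the amygdala, and by -0.42 ± 0.16 in intruder-exposed animals, where 13 of 15 did (edgeR adjusted p = 0.00023 and 0.0155). Tacr1, the substance P receptor, was higher than in the frontal cortex by 3.02 ± 0.20 and 2.51 ± 0.19 in the amygdala and by 2.76 ± 0.21 and 2.22 ± 0.19 in the hypothalamus, in controls and intruder-exposed animals in turn; all 4 differences were called. In the amygdala Tacr1 exceeded the hypothalamus in 11 of 13 control and 15 of 15 intruder-exposed animals, but only by median ratios of 1.16 and 1.2, and the edgeR test did not call it (adjusted p = 0.224 and 0.124). Calls of the 4 genes in these 6 regional comparisons, 20 of 24 tests, were the same number with DESeq2 without the animal block.

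The question posed by the design is what a brief encounter with an intruder does to gene expression in each region over time. In none of the 9 comparisons of intruder-exposed with control animals was a tachykinin gene called. The edgeR test called 0 of 36 gene comparisons, DESeq2 also called 0, and 1 of the 36 had an unadjusted p under 0.05. Background rates were low as well. The share of all genes called was 0% at 30 min, 0% at 60 min and 0.538% at 120 min in the amygdala (17277 genes tested), 0%, 0% and 0.192% in the hypothalamus (17676 genes), and 0% at all 3 times in the frontal cortex (17091 genes). Where 0 genes were called, between 339 and 1232 genes had an unadjusted p under 0.05, and DESeq2 called 0 genes there too.

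**Figure D2:**
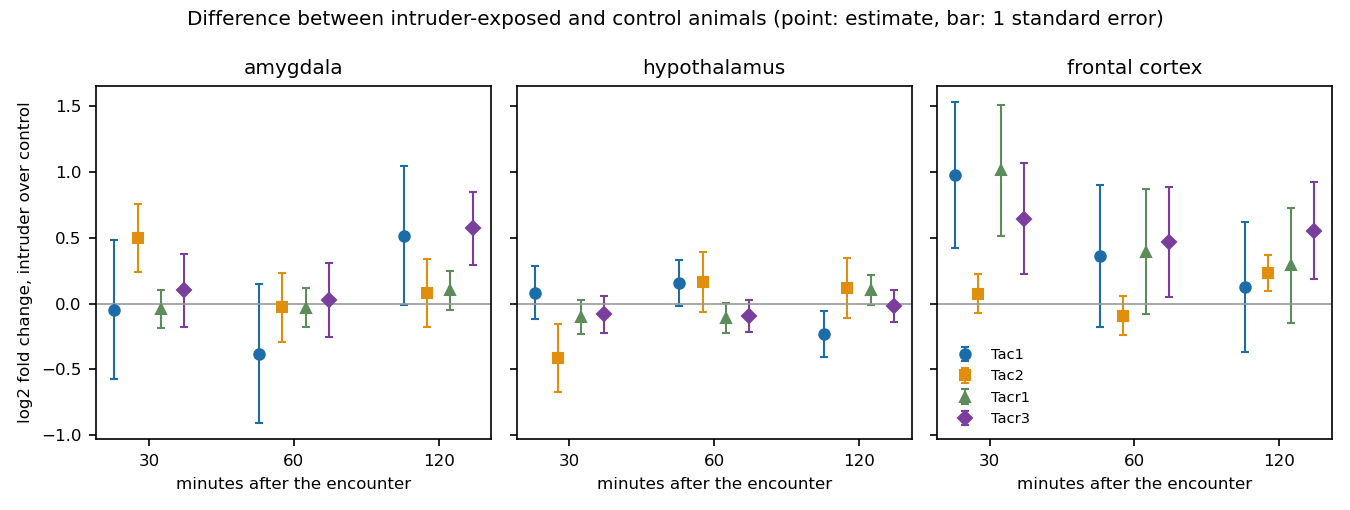
Log2 fold change of intruder-exposed over control animals for each gene by region and time; points are edgeR estimates and bars are 1 standard error. Standard errors are widest for Tac1 in amygdala and frontal cortex and for both receptors in the frontal cortex, and none of the 36 differences passed the threshold.

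The precision of these comparisons differed widely between regions. In the hypothalamus standard errors ran from 0.11 to 0.26 on the log2 scale, and no estimate lay beyond -0.41 ± 0.26, the value of Tac2 at 30 min. There Tac2 measured 22.7, 34.6 and 43.3 CPM in the 3 controls and 15.2 to 37.7 CPM with a median of 21.5 in the 5 intruder-exposed animals. On the index that both conditions share, Tac2 averaged 33.5 ± 10.3 CPM in controls (SD, n = 3) and 29.9 ± 8.11 CPM in intruder-exposed animals (n = 3), while the 2 intruder-exposed libraries with another index had 15.2 and 21.3 CPM. In the amygdala and frontal cortex the standard error of Tac1 was between 0.50 and 0.55.

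Tac2 in the amygdala at 30 min was among the larger estimates. Controls measured 12.6, 7.69, 13.0, 11.9 and 10 CPM, and intruder-exposed animals 20.4, 12.0, 15.2, 16.5 and 14.1 CPM. Of the intruder-exposed libraries 4 lay above every control and 1 lay within the control range. The fitted log2 difference was 0.50 ± 0.26, with an adjusted p of 1.00 over all genes in edgeR (unadjusted 0.0632), and it ran from 0.391 to 0.588 when single libraries of the 2 groups were left out. The opposite sign in the hypothalamus at this time did not amount to a called difference between regions: the edgeR test of whether the intruder effect differed among regions gave an adjusted p of 1.00 for Tac2 at 30 min (unadjusted 0.0109). Central and medial amygdala markers summed to 325 to 387 CPM (median 359) in these intruder-exposed animals and to 301 to 350 CPM (median 335) in controls; their part in the Tac2 difference was not tested. By 60 and 120 min the amygdala estimates of Tac2 were -0.03 ± 0.26 and 0.08 ± 0.26.

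Tacr3 in the amygdala at 120 min had the only unadjusted p under 0.05. Its levels were 13.5, 6.56, 9.37, 15.4 and 16.6 CPM in controls and 12.5, 18.4, 24.3, 13.6 and 22.6 CPM in intruder-exposed animals. The 3 highest values belonged to intruder-exposed animals, while the other 2 lay within the control range. The log2 difference was 0.57 ± 0.28 with an adjusted p of 0.329 in edgeR (unadjusted 0.0492). With the index as a term the estimate was 0.881 (adjusted p = 0.477 in edgeR); all 5 controls but 1 of 5 intruder-exposed libraries had an index that both conditions share. Moving with it, the oligodendrocyte markers summed to 2800 to 6040 CPM (median 4790) in intruder-exposed animals and 2170 to 4640 CPM (median 3380) in controls, and the striatal markers to 528 to 1800 CPM against 365 to 1640 CPM. Thalamus markers had medians of 105 and 91.8 CPM, and endothelial markers were lower in intruder-exposed animals, with medians of 90.9 and 127 CPM. Their part in the Tacr3 difference was not tested.

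In the frontal cortex at 30 min the estimates were the largest of all but rested on few animals. Tac1 measured 14.9, 10.2, 20.8, 11.3 and 25.2 CPM in controls and 36.9, 84.0, 6.98, 13.1 and 21.3 CPM in intruder-exposed animals. Tacr1 measured 2.45, 1.18, 2.76, 0.98 and 2.71 CPM in controls and 3.81, 8.56, 1.02, 3.2 and 3.68 CPM in intruder-exposed animals. In both genes intruder-exposed replicate 2 was highest and replicate 3 at or near the lowest, so this group spanned the control range on both sides or nearly so. The log2 differences were 0.98 ± 0.55 for Tac1 (adjusted p = 0.777 in edgeR) and 1.01 ± 0.50 for Tacr1 (adjusted p = 0.771); without intruder-exposed replicate 2 they were 0.253 and 0.550. The same library had the most striatal marker RNA of its group, 1080 CPM against 214 to 490 CPM in the other 4 and a median of 378 CPM in controls, whose values all lay below it. Libraries also differed in the first index sequence of their labels. The 5 controls and 3 of the intruder-exposed libraries shared an index, and among these Tac1 averaged 16.5 ± 6.41 and 13.8 ± 7.19 CPM, while the other 2 intruder-exposed libraries, with another index, had 36.9 and 84.0 CPM. With the index as a term the Tac1 estimate was -0.250 and that of Tacr1 0.401. In the frontal cortex at 120 min no index was shared between the conditions, so index and condition cannot be told apart there.

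Whether the intruder effect itself changed with time or place was tested directly. Across times the edgeR interaction test called none of the 4 genes in any region, against a background of 0% in the amygdala, 0.0113% in the hypothalamus and 0% in the frontal cortex; 0 of these 12 tests had an unadjusted p under 0.05, and DESeq2 called 0 of 12. In the amygdala, where edgeR called 0 genes, 2094 genes had an unadjusted p under 0.05 and DESeq2 called 157. The frontal cortex numbers were 761 and 4. Across regions none was called either, against a background of 0% at 30 min, 0% at 60 min and 0.0164% at 120 min, with 644 and 754 genes at an unadjusted p under 0.05 at the first 2 times; Tac2 at 30 min was the only one of 12 tests with an unadjusted p under 0.05.

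Time after the encounter was compared separately in each condition. No index sequence held libraries of more than 1 time in the frontal cortex of either condition. The same was true of the amygdala of intruder-exposed animals and the hypothalamus of controls. Within these sets alone a difference between times cannot be told apart from the index. In the amygdala of intruder-exposed animals an index term can be fitted only through control libraries that share index sequences. The column headers tag all 30 min libraries differently from the later ones in every region and condition. The 30 min groups can therefore not be told apart from the tag in any set. In controls none of the 4 genes was called in any region, against 0.232% of all genes in the amygdala, 0.181% in the hypothalamus and 33.4% in the frontal cortex; 0 of the 12 edgeR tests had an unadjusted p under 0.05, and DESeq2 called 0. In intruder-exposed animals the background was 12.9%, 1.49% and 46.1%, and Tac2 in the amygdala was the only one of 12 tests called. None of the 4 genes was called in the frontal cortex in either condition, with smallest adjusted p-values of 0.203 in controls and 0.552 in intruder-exposed animals by edgeR. The spread of Tac1, Tacr1 and Tacr3 there was wide. Frontal cortex Tac1 averaged 16.5, 35.2 and 30.1 CPM in controls at 30, 60 and 120 min, a log2 difference between 60 and 30 min of 1.10 ± 0.55 that was not called.

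Tac2 in the amygdala of intruder-exposed animals fell from 15.6 ± 3.12 CPM at 30 min to 8.05 ± 2.27 CPM at 60 min and stood at 12.1 ± 3.90 CPM at 120 min (n = 5 each). At 30 min the libraries held 12.0 to 20.4 CPM and at 60 min 8.33, 6.83, 8.78, 11.2 and 5.11 CPM. The values at 120 min were 9.18, 9.11, 18.6, 12.4 and 11.3 CPM. In the test over the 3 times Tac2 ranked 1900 of 17277 genes by p, and 12.9% of all genes were called. The edgeR test over the 3 times gave an adjusted p of 0.0393 (unadjusted 0.00432), with 60 minus 30 min at -0.96 ± 0.26 (adjusted p = 0.0254) and 120 minus 60 min at 0.59 ± 0.26 (adjusted p = 0.411). Controls had 11 ± 2.21, 8.22 ± 2.05 and 11.5 ± 5.34 CPM at the same times, which was not called (adjusted p = 0.644), and the difference between the conditions in this course was not called (adjusted p = 0.69). The call was lost in 9 of 15 edgeR refits that each left out 1 library, with adjusted p-values up to 0.107. These refits left out replicates 1, 3, 4 or 5 at 30 min, 1, 2, 3 or 5 at 60 min, or 6 at 120 min. The call was also lost without the filter on low counts (edgeR adjusted p = 0.0533) and with the index as a term (0.605). Each index held a single time in these animals. The fit with the index therefore compares their times only through control libraries and cannot separate index from time. Some marker lists fell with Tac2 from 30 to 60 min in these animals. Central and medial amygdala markers summed to 325 to 387, 278 to 317 and 275 to 325 CPM at 30, 60 and 120 min. At 120 min these sums stayed near the 60 min range. Hypothalamus markers summed to 26.1 to 56.7, 12.9 to 21.4 and 11.1 to 86.3 CPM. The part of either list in the Tac2 change was not tested.

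Among animals of the same group Tac1 and its receptor gene varied together in amygdala and frontal cortex and in opposite directions in the hypothalamus. Levels were taken as log2(CPM + 1) deviations from the group mean, and 18 pairs of genes and regions were tested by permutation of libraries with Benjamini-Hochberg adjustment. In the frontal cortex Tac1 and Tacr1 had Pearson r = 0.953 and Spearman rho = 0.945 over 32 libraries (permutation adjusted p = 2.57e-05 for both), and r = 0.94 without the 2 libraries farthest from the median of Tac1. The amygdala gave r = 0.823 and rho = 0.836 over 30 libraries (permutation adjusted p = 2.57e-05 for both; r = 0.798 without the 2 farthest). In the hypothalamus the sign was reversed, with r = -0.731 and rho = -0.778 over 28 libraries (permutation adjusted p = 4.5e-05 and 2.57e-05; r = -0.643 without the 2 farthest). The lowest p that 100000 permutations can give is 1e-05.

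**Figure D3:**
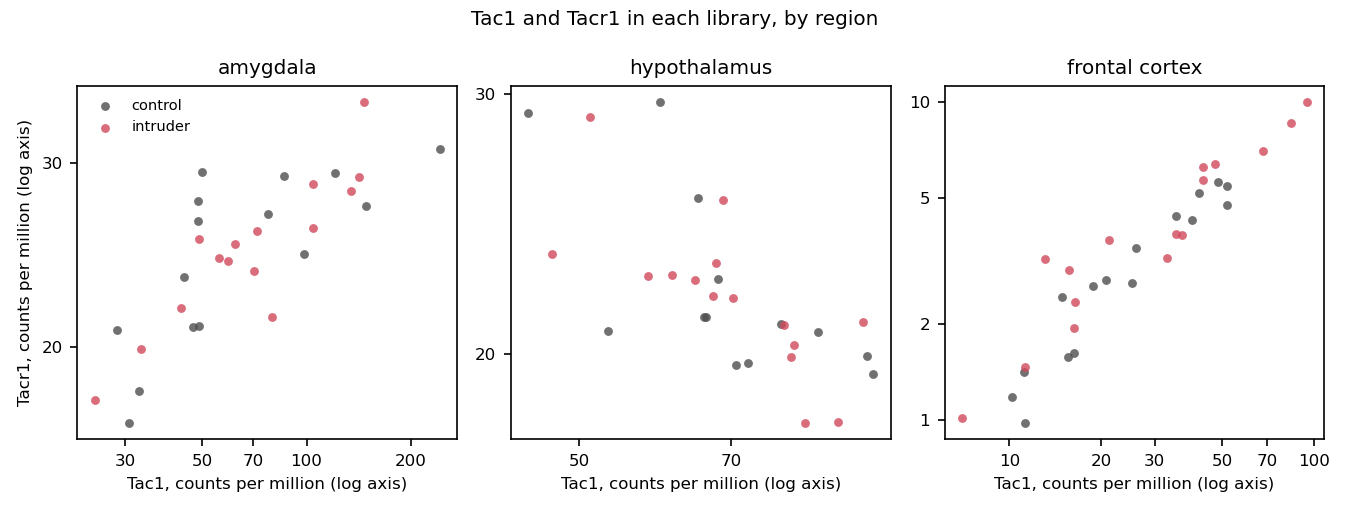
Tac1 against Tacr1 in each library, both in CPM on log axes, in amygdala, hypothalamus and frontal cortex; grey points are controls and red points intruder-exposed animals. The points climb in amygdala and frontal cortex and descend in the hypothalamus, where the Tac1 range (44.7 to 95.8 CPM) is narrow.

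Tac1 and Tacr1 kept the sign of their relation inside the single groups. Within the 6 frontal cortex groups r of Tac1 and Tacr1 was between 0.893 and 0.986, within the 6 amygdala groups between 0.495 and 0.952, and within the 5 hypothalamic groups of 5 libraries between -0.939 and -0.244. Tacr3 followed the same scheme over all libraries of a region: it rose with Tac1 in the amygdala (r = 0.855, rho = 0.912) and frontal cortex (r = 0.784, rho = 0.809), and fell as Tac1 rose in the hypothalamus (r = -0.596, rho = -0.583; permutation adjusted p = 0.00146 and 0.00245). Within single groups r of Tac1 and Tacr3 ranged from 0.762 to 0.972 in the amygdala, from -0.96 to -0.142 in the hypothalamus, and from 0.166 (controls at 60 min) to 0.976 in the frontal cortex. The receptor genes Tacr1 and Tacr3 rose together in all 3 regions, with r = 0.75, 0.756 and 0.82 in amygdala, hypothalamus and frontal cortex (permutation adjusted p = 2.57e-05 for each r), but single groups were uneven: r was 0.0717 in frontal cortex controls at 60 min and 0.161 in the hypothalamus of intruder-exposed animals at 120 min, and 0.386 to 0.993 in the others. Tac2 behaved differently from Tac1. In the hypothalamus it rose with Tacr1 (r = 0.657, rho = 0.6; permutation adjusted p = 0.00022 and 0.00154) and with its own receptor gene Tacr3 (r = 0.521, rho = 0.489; permutation adjusted p = 0.00678 and 0.0134) and ran against Tac1 (r = -0.581, rho = -0.563; permutation adjusted p = 0.00208 and 0.0035). Within hypothalamic groups the relation of Tac2 and Tacr1 was not of one sign, with r of 0.531 to 0.896 in the 3 groups of 30 and 60 min and of -0.58 in controls and -0.235 in intruder-exposed animals at 120 min. In the amygdala Tac2 showed no such relation to Tacr3 (r = 0.0846, rho = 0.0242, permutation adjusted p = 0.694 and 0.899). Tac2 against Tac1 in the frontal cortex gave r = -0.331 and rho = -0.452 (permutation adjusted p = 0.0869 and 0.0134), and its rho was -0.363 against Tacr1 and -0.368 against Tacr3 (permutation adjusted p = 0.0494 for both; r = -0.237 and -0.113, permutation adjusted p = 0.252 and 0.611). These 3 pairs passed the threshold by rank only, with Tac2 against the receptors opposite in sign to the hypothalamus. Permutation made no allowance for the removed group means, and 0.0494 lies just under the threshold. Without the 2 libraries farthest from the median of Tac2, r was -0.388 against Tacr1 and -0.46 against Tacr3. Single frontal cortex groups differed in sign. In intruder-exposed animals at 120 min r of Tac2 was 0.418 with Tac1, 0.476 with Tacr1 and 0.739 with Tacr3. The lowest group values were -0.866, -0.822 and -0.806 in turn.

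The range of Tac1 across libraries tracked that of striatal markers. Its r with the mean of 8 striatal medium spiny neuron genes was 0.951 in the amygdala and 0.945 in the frontal cortex, but -0.0884 in the hypothalamus. Against cortical excitatory markers it was -0.94 in the amygdala and -0.81 in the frontal cortex. The striatal list gave r = 0.723 and 0.912 with Tacr1, and 0.864 and 0.796 with Tacr3, in amygdala and frontal cortex. These lists share libraries, depth and dissection with the genes they are set beside and are given as a description; what part tissue content has in the Tac1 and Tacr1 values was not tested. In the amygdala Tac1 spanned 24.5 to 242 CPM, a 9.9-fold range, while in the hypothalamus, where the striatal list stayed within 196 to 368 CPM, the range was 2.14-fold.

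**Figure D4:**
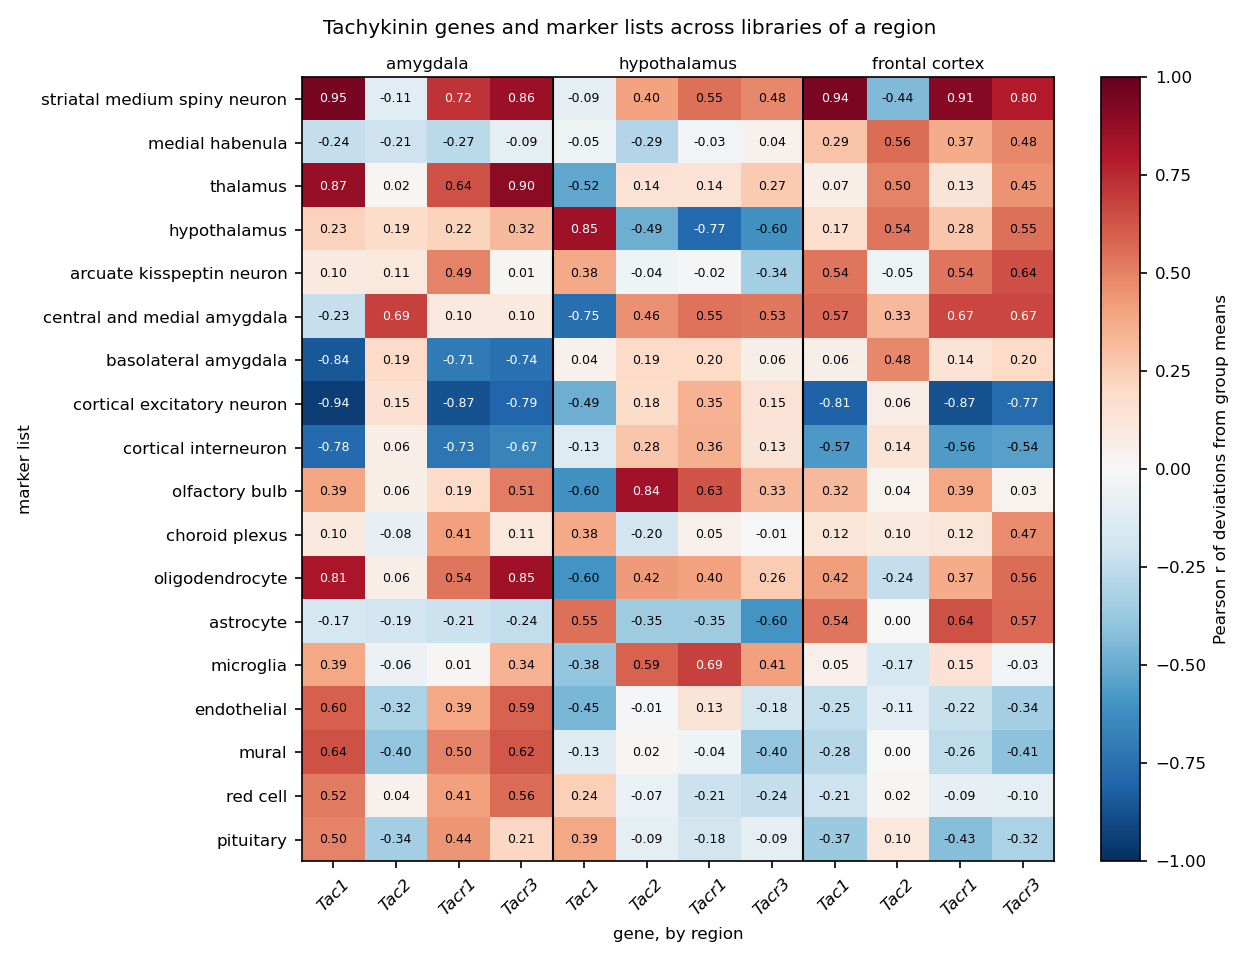
Pearson r between each tachykinin gene and each marker list (rows) across libraries of a region, as deviations from group means; red is positive and blue negative on a scale from -1 to 1. Tac1 is most positive with the striatal list in amygdala (0.951) and frontal cortex (0.945) and with the hypothalamus list in the hypothalamus (0.847).

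Other lists separated the genes within the hypothalamus. Tac1 rose with the hypothalamus list (r = 0.847), which holds Nkx2-1, Pomc and Agrp among others, and Tacr1 ran against it (r = -0.774), as did Tacr3 (r = -0.602). Tac2 rose with the olfactory bulb list (r = 0.843), which holds 4 genes. In the hypothalamus Eomes ranged from 0.0658 to 2.78 CPM. Th ranged from 25.9 to 44.3, Doc2g from 1.75 to 3.2 and Cdhr1 from 4.13 to 7.2 CPM. Eomes alone gave r = 0.865 with Tac2. In the amygdala Tac2 moved instead with the central and medial amygdala list (r = 0.687), and Tacr3 with the thalamus list (r = 0.902) and the oligodendrocyte list (r = 0.846).

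Ranking all genes that passed the filter by r with each of the 4 named the closest neighbours. For Tac1 in the amygdala they included Slc35d3 (r = 0.985), Syt6, Stk32a and Mme (r = 0.977); Mme encodes neprilysin, a membrane peptidase that cleaves substance P. Slc35d3 again came first in the frontal cortex (r = 0.977), before Penk, the enkephalin precursor (r = 0.972), Rarb, Rgs9 and Serpina9. In the hypothalamus the list was a different one, Cited1 (r = 0.933), Amigo2, Gpr50, Tbx19 and Npy, the neuropeptide Y precursor (r = 0.915). Tacr1 lay closest to Klhl13 in the frontal cortex (r = 0.969), followed by Bcl11b, Tac1 itself, Penk and Gng7, to Pard3 in the amygdala (r = 0.914), and to Elfn1 (r = 0.977) and the serotonin receptor gene Htr1a (r = 0.929) in the hypothalamus.

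Tac2 had looser neighbours in the amygdala, with Vdr, the vitamin D receptor gene (r = 0.776), Ptpdc1 (r = 0.755) and Prkcd, a marker of central amygdala neurons (r = 0.706), first. In the hypothalamus the peptide genes Pnoc (r = 0.896) and Nts (r = 0.886), which encode the precursors of nociceptin and neurotensin, led, followed by Eomes (r = 0.865). Tacr3 was nearest to Cacna2d2 (r = 0.968) and to the cholinergic genes Ache (r = 0.963), Slc5a7 and Chrm2 (both r = 0.955) in the amygdala. In the frontal cortex Six3os1 (r = 0.915) and Ecel1 (r = 0.914) came first, and Chat, the enzyme that makes acetylcholine, was among the 5 closest (r = 0.897). Across the means of the 18 groups the nearest patterns were those of Rasgrp2 for Tac1 (r = 0.962), Ache for Tac2 (r = 0.987), Klhl13 for Tacr1 (r = 0.996), and Stk32b (r = 0.997) and Gad2, the GABA-synthesizing enzyme (r = 0.996), for Tacr3.

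The start regions of Tac1 and Tacr1 are shown because these genes rose and fell together in the frontal cortex and amygdala. RefSeq promoters of GRCm38.p6, 250 bases before to 50 after the start, were found for 4 of 4 genes. The reads were aligned to an older build, NCBIM37, and no count depends on these coordinates. Both genes lie on the plus strand of chromosome 6, Tac1 at chr6:7554811-7555110 and Tacr1 at chr6:82402225-82402524, written 5′ to 3′. Capitals mark matches, on either strand, to TGACG, the core of the cAMP response element, and to the E-box CACGTG.
Tac1: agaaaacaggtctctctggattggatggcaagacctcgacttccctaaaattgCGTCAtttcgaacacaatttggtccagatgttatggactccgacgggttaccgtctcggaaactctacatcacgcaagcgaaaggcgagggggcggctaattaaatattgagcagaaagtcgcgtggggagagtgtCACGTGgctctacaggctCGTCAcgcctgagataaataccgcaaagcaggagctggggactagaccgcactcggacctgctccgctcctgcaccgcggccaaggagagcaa
Tacr1: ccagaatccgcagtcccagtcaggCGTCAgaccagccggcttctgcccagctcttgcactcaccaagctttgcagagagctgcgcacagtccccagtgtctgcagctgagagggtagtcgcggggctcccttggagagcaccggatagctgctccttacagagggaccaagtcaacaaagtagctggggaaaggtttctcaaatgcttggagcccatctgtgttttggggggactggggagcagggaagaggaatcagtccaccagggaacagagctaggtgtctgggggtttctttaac
Tac1 holds that core at 197 and 43 bases before the start and the E-box at 61, and Tacr1 holds it once, at 226 bases. Tacr3 (chr3:134828757-134829056) has it once, at 58 bases, and Tac2 (chr10:127724228-127724527) has none. Of 32851 mouse promoters of this length 20.8% hold the core and 7.15% the E-box, so the core is common. The full element TGACGTCA (1.79% of promoters) and the AP-1 motif TGANTCA (7.81%) matched none of the 4 windows; the core lies inside the full element. The motifs are letter matches only.

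Other genes of the pathway were counted as a list of 29: Tac4 and Tacr2, the remaining peptide and receptor genes, and genes for peptide processing, peptide cleavage, receptor coupling, receptor desensitization and the partners of Tac2 in arcuate neurons. Of these, 26 passed the filter in the fit of each region, and the symbol Kiss1, the kisspeptin gene, was not matched to an identifier and is not analysed here. None was called between intruder-exposed and control animals in any of the 9 comparisons by edgeR. Over time 3 of 26 were called in the amygdala of intruder-exposed animals (Scg5, Grk6 and Grk5), a share near the 12.9% of all genes. With the index as a term the 2225 genes behind that share became 2, in a fit that compares these times only through control libraries. In the frontal cortex 13 of 26 were called between the times in controls and 14 in intruder-exposed animals, beside 33.4% and 46.1% of all genes, where time and index cannot be told apart. All 7 receptor coupling genes, which include the G protein genes Gnaq and Gna11 and the inositol trisphosphate receptor gene Itpr1, were among them in both conditions. Tacr1 and Tacr3 were not called in the same fits, but their standard errors were wide. In controls the log2 differences between 60 and 30 min were 0.94 ± 0.50 (SE) for Tacr1 and 0.20 ± 0.43 for Tacr3. A difference between the receptors and the coupling genes was not tested.

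Between regions 23 of 27 pathway genes were called in controls for hypothalamus against frontal cortex, 11 higher and 12 lower, beside 81.8% of all genes. Ece2, an endothelin-converting enzyme of the peptide cleavage list, was higher in the hypothalamus by 2.63 ± 0.06 (log2, SE; edgeR adjusted p = 2.87e-38), the direction of the 4 tachykinin genes. Receptor coupling genes mostly ran the other way: 5 of 7 were lower in the hypothalamus than in the frontal cortex, among them Plcb1, a phospholipase C (-1.77 ± 0.05), Itpr1 (-2.30 ± 0.07) and Prkca, a protein kinase C (-1.53 ± 0.05). The list's median log2 difference was -0.38, against 0.02 over all genes. For amygdala against frontal cortex 22 of 27 were called in controls, 8 higher and 14 lower, beside 68.3% of all genes. Tacr2, the neurokinin A receptor gene, lies outside the rule for naming pathway genes. It was chosen after its values were seen, so its differences are a description only. Against the frontal cortex its hypothalamic log2 difference was -1.32 ± 0.37 (SE) in controls and -1.91 ± 0.41 in intruder-exposed animals. The sign was opposite to that of Tacr1 and Tacr3. Tacr2 passed the filter only in the fit of all libraries, where Tac4 did not. Its counts were too low for the filter in the fit of each region.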

How the data were processed

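The 90 libraries were made from total RNA with a stranded mRNA kit and sequenced as single-end reads, per the labels' protocols. The authors deposited raw read counts per Ensembl gene; the submitters' processing notes name CASAVA 1.8.2, TopHat2 2.0.8, HTSeq 0.6.1, edgeR 3.2.4, R 3.0.0 and build NCBIM37, and the annotation release and strand setting are not given in the sources used here. The table's 5 summary rows were left out; reads without a feature made up 8.63% to 14.5% and reads that were not unique 9.79% to 11.5%. Of the identifiers, 32919 had a symbol.

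Counts were filtered with filterByExpr, scaled by TMM and fitted with the quasi-likelihood test of edgeR 4.0.16 (limma 3.58.1, R 4.3.3), 6 groups to a region, with Benjamini-Hochberg adjustment over all genes tested and a threshold of 0.05. DESeq2 1.42.0, RLE and upper-quartile scaling, no filter, the 2 groups alone, a replicate block, an index block and leaving out each library were alternatives. Region fits held all libraries with the animal as a block. The scripts were tested on simulated data. Correlations used log2(CPM + 1) deviations from group means and 100000 permutations. Genes named as closest to a member were taken from the 5 with the highest r in a region or across groups, of which the text gives a part, and pathway genes only where called, at most the 4 with the smallest adjusted p. The members and lists were chosen with earlier results of these data known. Labels name an animal per library, but with RNA described as pooled, p-values measure the spread between these libraries. Promoters came from RefSeq tables of GRCm38.p6, and exon lengths and reading frames from Gencode M21. The relation of the members to the arcuate marker list is not reported here.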

Additional observations from a re-analysis of the deposited data

Results flagged for a closer look

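Of 68 combinations of a gene with a group of 5 or 6 libraries, 5 held 1 library set far from the rest of its group; chance gives about 1 in 20. Tac1 measured 242 CPM in amygdala control replicate 6 at 60 min and 148 CPM in amygdala control replicate 6 at 120 min. In these libraries the striatal markers summed to 2840 CPM, against 469 to 642 CPM in the other controls at 60 min, and to 1640 CPM, against 365 to 698 CPM at 120 min; their part in the Tac1 values was not tested. Tac2 measured 8.52 CPM in frontal cortex intruder-exposed replicate 1 at 120 min. Tacr1 measured 29.6 CPM in hypothalamus control replicate 6 at 60 min. Tacr3 measured 1.85 CPM in frontal cortex control replicate 2 at 60 min. The causes of the other gaps were not tested.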

How the results depend on the processing

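Between intruder-exposed and control animals 0 member tests were called under each alternative run, which covered all 36 except with the index block; that block could not be fitted in the frontal cortex at 120 min, where no index is shared, nor in the tests over times of the hypothalamus and frontal cortex. Also, the 20 regional calls held under each alternative run for them. The single call over time, Tac2 in the amygdala of intruder-exposed animals, gave a count of 1 with RLE scaling, upper-quartile scaling and DESeq2, 0 without the filter, 0 with the index block and 0 to 1 leaving out a library; the causes were not tested.

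The labels do not say whether equal replicate numbers pair the libraries of control and intruder-exposed animals. Same-numbered libraries correlated at r = -0.503 to 0.557, and 0 of 9 sets of groups had every pair over 0.1. These values do not decide whether the libraries were paired. With the replicate block, differences of intruder-exposed from control that changed sign, none of them called, were Tac1 in amygdala at 60 min (0.325), Tacr1 in amygdala at 60 min (0.0772), Tacr3 in hypothalamus at 60 min (0.0862) and Tac1 in frontal cortex at 60 min (-0.125). The block gave 199 called genes in place of 93 in the amygdala at 120 min, 6 in place of 34 in the hypothalamus at 120 min and 1 in place of 2 for the effect between times there.

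With the index block the sign changed for Tac1 (0.49), Tacr1 (0.0924) and Tacr3 (-0.186) in amygdala at 60 min, Tac2 in amygdala at 120 min (-0.018), Tacr3 in hypothalamus at 120 min (0.0938), and Tac1 at 30 min (-0.25) and Tac2 at 60 min (0.00662) in frontal cortex.

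Leaving out 1 library changed the sign of 17 of 36 log2 differences. The ranges in the amygdala were -0.192 to 0.158 (Tac1) and -0.0166 to 0.229 (Tacr3) at 30 min, -0.813 to 0.493 (Tac1), -0.18 to 0.0935 (Tac2), -0.133 to 0.104 (Tacr1) and -0.149 to 0.157 (Tacr3) at 60 min, and -0.131 to 0.355 (Tac2) and -0.00953 to 0.16 (Tacr1) at 120 min. In the hypothalamus they were -0.143 to 0.408 (Tac1), -0.246 to 0.0399 (Tacr1) and -0.209 to 0.0273 (Tacr3) at 30 min, -0.187 to 0.00358 (Tacr1) and -0.187 to 0.0316 (Tacr3) at 60 min, and -0.0549 to 0.0567 (Tacr3) at 120 min. In the frontal cortex they were -0.0934 to 0.584 (Tac1) and -0.000379 to 0.579 (Tacr1) at 60 min and -0.0413 to 0.348 (Tac1) at 120 min.

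Counts over all genes moved by more than 1.5 times in these cases, the causes not tested. For intruder-exposed against control animals in the amygdala at 120 min, 93 became 12 without the filter, 0 in the 2 groups alone, 0 with the index block, 409 with DESeq2 and 6 to 218 leaving out a library, and at 60 min 0 became up to 7. In the hypothalamus at 120 min 34 became 0 in the 2 groups alone, 100 with DESeq2 and 19 to 53 leaving out a library, and in the frontal cortex at 120 min 0 became up to 20. Over time in amygdala controls 40 became 20 without the filter, 0 with the index block, 196 with DESeq2 and 16 to 133 leaving out a library, and in intruder-exposed animals 2225 became 2 with the index block and 1173 to 2481 leaving out a library. In the hypothalamus 32 in controls became 162 with DESeq2 and 9 to 31 leaving out a library, and 263 in intruder-exposed animals became 607 and 135 to 334. The effect between times gave 157 (amygdala) and 4 (frontal cortex) in place of 0 with DESeq2; in the hypothalamus 2 became 25 with DESeq2, 0 with the index block and 4 with RLE scaling, upper-quartile scaling or no filter.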
